A study of Mus musculus with 8 samples.

Results

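The genes described here are 10 transcription and RNA-decay regulators of the immediate early class, namely the AP-1 subunits Fos, Fosb, Jun, Junb and Jund, the transcription factors Egr1 and Atf3, and Ier2, Ier5 and Zfp36. They were taken by name from the rows of a single-cell count table of 16889 genes, and all 10 were found. No measured value was a criterion, but the choice was made with earlier results of these data known. The cells sequenced were sorted from the lamina propria of the colon as CD11b+ and either CCR2+ or CD64+. They came from 8 female CD98hcΔCX3CR1 mice, of which 4 were injected with corn oil (control) and 4 with tamoxifen (cKO). All mice carried the floxed CD98hc gene (Slc3a2) and Cx3cr1-CreER-YFP, so that in cKO mice an inducible Cre recombinase acted in cells that express or had expressed Cx3cr1. Mice were littermates between 6 and 12 weeks of age according to the methods of the study, and those given tamoxifen received 100 µl of a solution of 20 mg/ml on each of 5 days, with cells taken on day 7. The methods of the study state the tamoxifen dose by body weight and not by volume. Only cKO mice received tamoxifen, and its own effect and that of the deletion cannot be told apart. The colon was digested with warm collagenase before sorting, cells of each mouse were loaded into a well of their own, and all wells were run on the same day and cartridge. The methods of the study name 3000 cells per well as the recovery aimed at.

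Immediate early genes are transcribed within minutes of a stimulus, without the need for new protein, when kinases activate transcription factors that are already bound or waiting at their promoters. FOS and JUN family proteins pair to form AP-1, which binds regulatory DNA of cytokine, protease and survival genes, and ZFP36 (tristetraprolin) closes the response by promoting decay of cytokine mRNAs. In macrophages the genes respond to microbial products and cytokines, and in solid tissues they are also well known to be induced by enzymatic digestion, so that part of their mRNA in a sorted cell can date from the preparation. No sample without digestion is in the series, and the share of each level that dates from the preparation was not tested.

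Promoters of this class can carry sequence elements through which it is switched on. Promoter windows are shown for Fos and Jun, an AP-1 subunit of each family, and for Atf3. Atf3 is the member with the largest difference in the fit below that holds cluster fixed. RefSeq windows on GRCm38.p6 matched 8 of the 10 genes, all except Egr1 and Ier2. Each line gives the 250 bases before the RefSeq start of the gene, 5′ to 3′ on the strand of the gene, and capitals mark a match to TGACG or TGACNTCA on either strand, the cores that factors of the CREB and ATF family and AP-1 bind. The Fos window is chr12:85473640-85473889 (plus strand), the Jun window is chr4:95052223-95052472 (minus strand), and the Atf3 window is chr1:191183334-191183583 (minus strand). The GENCODE model of Atf3 starts 34706 bases further upstream, so this window lies inside that longer gene model.
Fos: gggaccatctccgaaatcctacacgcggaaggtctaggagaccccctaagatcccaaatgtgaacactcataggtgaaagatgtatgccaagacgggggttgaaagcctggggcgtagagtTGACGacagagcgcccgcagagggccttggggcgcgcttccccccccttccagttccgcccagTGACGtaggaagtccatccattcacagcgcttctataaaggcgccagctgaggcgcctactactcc
Jun: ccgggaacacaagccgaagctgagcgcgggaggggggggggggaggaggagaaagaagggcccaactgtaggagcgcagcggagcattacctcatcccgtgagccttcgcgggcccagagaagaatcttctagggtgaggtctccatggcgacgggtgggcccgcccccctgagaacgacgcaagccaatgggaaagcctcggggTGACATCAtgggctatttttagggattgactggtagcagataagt
Atf3: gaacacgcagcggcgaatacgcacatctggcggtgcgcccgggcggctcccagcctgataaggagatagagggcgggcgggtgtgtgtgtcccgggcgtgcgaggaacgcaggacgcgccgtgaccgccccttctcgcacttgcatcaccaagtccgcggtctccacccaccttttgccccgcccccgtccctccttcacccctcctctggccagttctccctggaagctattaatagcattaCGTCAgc

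TGACG was found in 4 of the 8 windows and in 17.8% of 32851 windows of all genes. It began at -129 and -66 from the RefSeq start in Fos, at -60 in Fosb, at -106 in Junb and at -7 in Atf3. TGACNTCA was found in Jun only, at -45 (7.49% of all windows), TATAAA in Fos only, at -33 (12.4%), and a CArG box, the element of serum response factor, in Zfp36 only, at -58 (1.47%). No window of the 8 held TGANTCA, the consensus AP-1 site, which was in 6.75% of all windows. The windows of Ier5 and Jund held none of these motifs. All motifs were read on both strands, and TGACNTCA and TGACG can overlap. Such a match is a description of these letters in this window only.

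In the GENCODE vM21 annotation of GRCm38, Fos (ENSMUSG00000021250) lies at chr12:85473890-85477273, Fosb (ENSMUSG00000003545) at chr7:19302696-19310051, Jun (ENSMUSG00000052684) at chr4:95049034-95052222, Junb (ENSMUSG00000052837) at chr8:84974484-84978718 and Jund (ENSMUSG00000071076) at chr8:70698949-70700616. Ier2 (ENSMUSG00000053560) lies at chr8:84661331-84662852, Ier5 (ENSMUSG00000056708) at chr1:155096361-155099636, Atf3 (ENSMUSG00000026628) at chr1:191170296-191218039 and Zfp36 (ENSMUSG00000044786) at chr7:28376784-28380253, and Egr1 is listed as ENSMUSG00000038418. The reads come from the 3′ ends of transcripts, so they do not separate isoforms that share an end.

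After filters on depth, genes and mitochondrial share, 3213 cells of 5947 barcodes were kept, 1863 of control and 1350 of cKO mice. Control replicates are numbered 1 to 4 and cKO replicates 5 to 8. A mouse gave between 83 and 724 cells and between 497531 and 3762314 unique molecular identifiers (UMIs), and the median cell held 4149 to 5538 UMIs. Control replicate 3 (85 cells) and cKO replicate 5 (83 cells) were far smaller than the others, and 24 of the 83 cells of cKO replicate 5 were called doublets, against 2 to 16 cells in the other mice. Of the kept barcodes, 8 occurred in more than 1 well. The targeted gene Slc3a2 did not separate the conditions in the 3′ counts, with 232.5 to 493 counts per 1000000 UMIs (CPM) in control and 291 to 357 CPM in cKO mice (log2 fold change 0.02, standard error 0.21, adjusted p = 0.976, edgeR), so control and cKO are the labels of the mice.

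Levels over all kept cells of a mouse, in CPM, are given first, and a log2 fold change is cKO relative to control throughout. The median mitochondrial share of these cells was 1.58% to 1.71% in control and 1.36% to 1.54% in cKO mice. The AP-1 subunit Fos, which pairs with JUN proteins and cannot form a stable dimer with itself, was at 3686, 3619.9, 2911 and 3329 CPM in the control mice and at 3726, 2958, 2895 and 2562 CPM in the cKO mice. The ranges overlapped, with cKO replicate 5 the highest of all mice and 1 of the smallest libraries. Fosb, a paralog of Fos, was at 279.6, 332, 423 and 352 CPM in control and at 438, 355, 199.9 and 210.4 CPM in cKO mice. For Fosb the smallest library of each condition was the highest of its group.

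Jun, whose protein can dimerise with itself or with FOS and ATF proteins, was at 1516, 1134, 957 and 389.7 CPM in control and at 1252, 1267, 714 and 1004 CPM in cKO mice. Control replicate 4 was the lowest of all 8 mice. For Junb, often an antagonist of JUN at the same sites, that mouse was instead the highest, with control values of 2819, 2509, 2388 and 3631 CPM and cKO values of 2715, 2822, 2851 and 1962 CPM. Jund, the family member that is usually present without a stimulus, was at 47.8, 41.3, 149 and 30.6 CPM in control and at 161, 68.3, 51.1 and 60.8 CPM in cKO mice. Control replicate 3 and cKO replicate 5 stood above the other mice of their group for Jund.

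Egr1, a zinc finger factor downstream of the MAP kinase pathway, was at 295, 350.2, 453 and 214 CPM in control and at 426, 238, 175 and 189 CPM in cKO mice. Atf3, which represses many inflammatory genes, was at 801, 813, 857 and 841 CPM in control mice, a narrow range, and at 955, 619.8, 479 and 494 CPM in cKO mice. For Atf3, 3 of the 4 cKO mice lay below all control mice and cKO replicate 5 lay above all of them. Ier2, a short-lived nuclear protein, was at 778, 809, 743 and 765 CPM in control and at 888, 696, 536 and 539.8 CPM in cKO mice, with the same arrangement as Atf3. Its relative Ier5 was at 99.1, 92.0, 207 and 87.2 CPM against 167, 109, 104 and 109 CPM, and Zfp36 at 761, 757, 1041 and 905 CPM against 1031, 805, 797 and 671 CPM. Ier5 was thus highest in the smallest library of each condition.

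**Figure D1:**
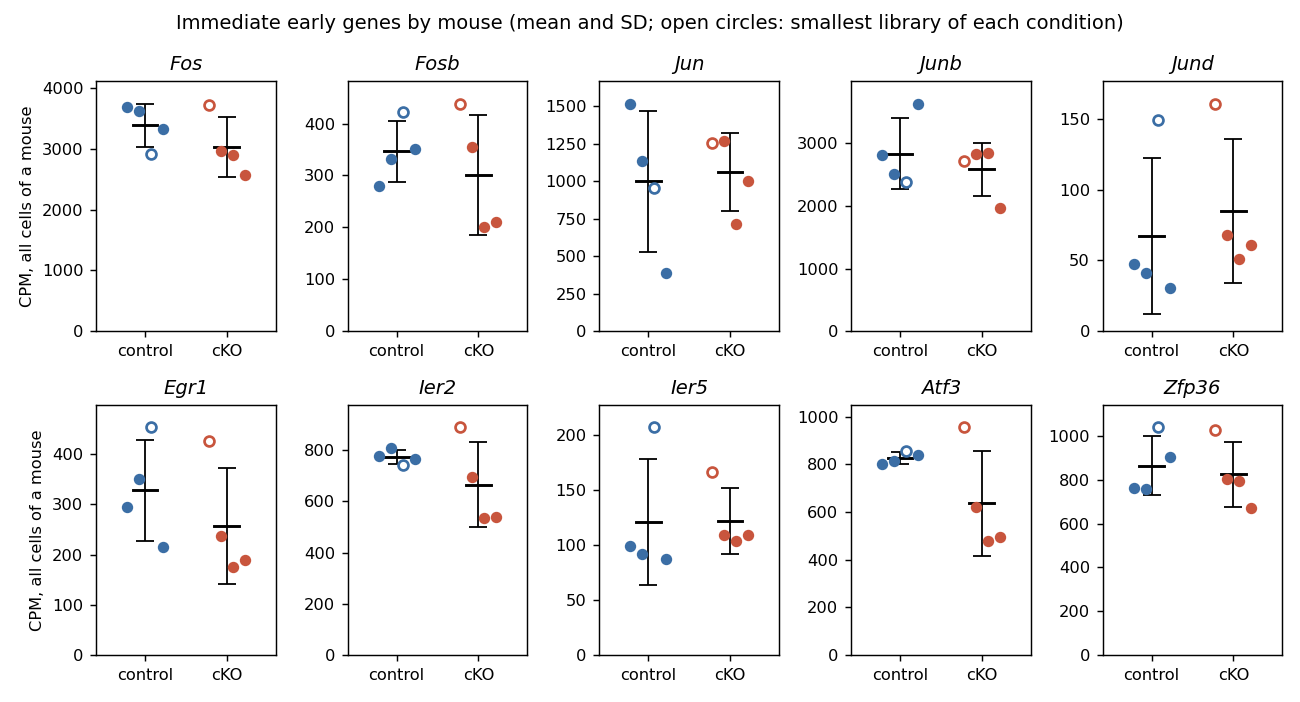
Level of each of the 10 genes over all kept cells of a mouse, in CPM, 1 point per mouse, with the mean and SD of 4 control and 4 cKO mice as bars. Open circles are the smallest library of each condition (control replicate 3 and cKO replicate 5), and the groups overlapped for every gene.

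None of the 10 genes was called between conditions over all cells, where 4.48% of 11387 genes were (edgeR quasi-likelihood test on UMI sums per mouse, Benjamini-Hochberg adjustment over all genes, threshold 0.05). DESeq2 called none of the 10 either, and none had an unadjusted p under 0.05 (lowest 0.156), while 2343 genes did. The log2 fold changes were -0.06 for Fos (standard error 0.14, adjusted p = 0.85), -0.30 for Atf3 (0.20, adjusted p = 0.434), -0.28 for Egr1 (0.29, adjusted p = 0.628) and 0.48 for Jund (0.48, adjusted p = 0.628), in edgeR. Those of Fosb, Ier2, Junb, Zfp36, Ier5 and Jun lay between -0.13 and 0.17. These values moved with single mice, although no mouse left out gave a call. Jund was at 1.09 without control replicate 3 and at 0.10 without cKO replicate 5, Egr1 at -0.08 and -0.60 in the same order, Atf3 at -0.53 without cKO replicate 5, and Jun at 0.17 with all mice and -0.10 without control replicate 4. Without the lymphoid-like, stromal-like and dendritic cell-like clusters, Fos was at -0.33, Jun at -0.23, Egr1 at -0.83 and Atf3 at -0.67, again with no call. Of the 10 log2 fold changes 6 were below 0, as were 52.7% of those of all genes. No gene of the 10 had all cKO mice below or all above the control mice, and of all genes 8.34% had all cKO mice below.

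The cells of the conditions were of different makeup, and over all cells a smaller number of cells of a type cannot be told apart from less RNA per cell. The summed level of 8 monocyte markers was 1407 to 2960 CPM in control and 6729 to 10012 CPM in cKO mice, with 6 of the 8 genes higher in every cKO mouse. The summed level of 9 dendritic cell markers was 768 to 934 CPM in control and 179.8 to 352 CPM in cKO mice. The comparison was therefore also made with the cluster of the cells held fixed.

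Cells were grouped into 9 clusters after the genes described here, the lists named below and a published list of differences between conditions had been left out, so that cluster borders did not follow them. Cluster 1 (682 cells) was monocyte-like, with Mgst1, Hp and F13a1 among its leading genes. Cluster 3 (534 cells) was dendritic cell-like (Cd209a, Cd24a, Xcr1, Flt3), cluster 4 (346 cells) macrophage-like (Stab1, C1qa, Cd81), cluster 8 (180 cells) lymphoid-like (Jchain, Mzb1, Cd3g) and cluster 9 (88 cells) stromal-like (Dcn, Col3a1). Clusters 8 and 9 hold markers of cells that the gate on CD11b, CCR2 and CD64 was not meant to collect. Cluster 2 (605 cells, led by Fam213b, Gdf3 and Clec4a2), cluster 5 (309 cells, led by Ccl24, Cebpb and Pnrc1), cluster 6 (235 cells, led by Folr2, Npl and Igf1) and cluster 7 (234 cells, led by Saa3, Arg2 and Hp) were left unnamed. Cluster 6 was shallow, its cells holding a median of 0.231 of the UMIs of the median cell of their own mouse and 0.251% mitochondrial UMIs. In cluster 5 these values were 0.43 and 2.63%, the highest mitochondrial share of any cluster.

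With cluster as a term and mouse as a random effect (limma-voom over 48 sums of 8 mice and 9 clusters), 5 of the 10 genes were lower in cKO cells and none was higher, where 1.9% of 11346 genes were lower and 5.23% were called in either direction. Atf3 fell by 0.88 on the log2 scale (standard error 0.11, adjusted p = 1.16e-08, limma) and Fos fell by 0.56 (0.07, adjusted p = 5.54e-08). Junb fell by 0.51 (adjusted p = 0.000164), Ier2 fell by 0.49 (adjusted p = 0.00177) and Zfp36 fell by 0.43 (adjusted p = 0.000174, limma), although the log2 fold change of Zfp36 over all cells was 0.02. Egr1 (-0.52, adjusted p = 0.0711) and Fosb (-0.37, adjusted p = 0.0705) had differences of like size that did not pass, and those of Jun (-0.14), Ier5 (0.10) and Jund (0.48, adjusted p = 0.116) did not pass either. The fit estimated a correlation of only 0.0193 between sums of the same mouse, so it treated the 48 sums nearly as separate samples. All 5 calls held when each of the 8 mice was left out in turn and when control replicate 3 and cKO replicate 5 were left out together. Control replicate 3 entered this fit with 1 sum only (cluster 3, 22 cells), and so did cKO replicate 5 (cluster 1, 21 cells). Leaving these mice out could therefore change little, and says little on how far the calls hold. Fosb also passed without control replicate 1 (-0.50, adjusted p = 0.0205) and without cKO replicate 6 (-0.52, adjusted p = 0.00606), and without control replicate 4 Jun fell by 0.74 (adjusted p = 1.22e-05, limma) and Egr1 fell by 0.65 (adjusted p = 0.00878), so that mouse decided the value of Jun.

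The same was therefore computed with the mouse as the unit, as the mean of log2(CPM + 10) over clusters 1, 2, 3, 5, 6 and 8 in the 3 control and 3 cKO mice that had at least 20 cells in each. Fos was at 11.55 to 11.80 in control and 11.12 to 11.21 in cKO mice on this scale, a difference of -0.51. Atf3 differed by -0.59, Ier2 by -0.57, Junb by -0.50, Egr1 by -0.47, Fosb by -0.47 and Zfp36 by -0.36. Of the 10 differences 8 were below 0, as were 56% of those of all genes. For Fos and these 6 genes every cKO mouse lay below every control mouse, as it did for 9.55% of all genes. Control replicate 3 and cKO replicate 5 had too few cells to be included here. Over all cells cKO replicate 5 lay above every control mouse for Fos, Fosb, Atf3 and Ier2, so this separation was seen without that mouse. Jund was the exception in direction, at 5.22 to 5.69 in control and 5.96 to 6.27 in cKO mice, a difference of 0.66 with every cKO mouse above (6.38% of all genes). Jund had 4 UMIs in all of cluster 6, and without that cluster its difference was 0.40 and the conditions overlapped. Fosb (-0.28) and Egr1 (-0.29) overlapped without cluster 6 too, while Fos (-0.47), Atf3 (-0.66), Junb (-0.38), Ier2 (-0.40) and Zfp36 (-0.25) did not. Over the 6 clusters Jun (-0.06) and Ier5 (0.21) overlapped between conditions. With 3 mice against 3 an exact permutation test cannot go below p = 0.1, so none was run on these values. This weighting was chosen after the data were seen.

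Levels were then set side by side between clusters, as means over mice of both conditions, which hold unequal shares of the mice of a cluster. Cluster 6 was the lowest for 8 of the 10 genes and cluster 8 for Atf3 and Zfp36, among clusters with at least 20 cells in several mice. Cluster 5 was the highest for Fosb, Jund, Egr1, Ier5 and Zfp36. Its mean level over 6 mice was 644 ± 121 CPM (SD) for Fosb, 562 ± 254 CPM for Egr1, 356 ± 95.4 CPM for Ier5, 176 ± 66.8 CPM for Jund and 1255 ± 149.7 CPM for Zfp36. In the monocyte-like cluster 1 the same genes were at 181 ± 61.4, 156 ± 38.6, 104 ± 12.5, 72.6 ± 32.9 and 1047 ± 139.5 CPM (SD, n = 7 mice), in that order. Taken within a mouse on the log2(CPM + 10) scale, cluster 5 exceeded cluster 6 by 2.51 ± 0.67 for Egr1 (SD, n = 6) in 6 of 6 mice, a size that depends on the 10 CPM added, since cluster 6 held 29 UMIs of Egr1. For Fosb, Jund and Ier5 it held 16, 4 and 13 UMIs, too few for such a difference.

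Fos and Junb were highest in cluster 7, at 3837 ± 966 and 4400 ± 1492 CPM (SD, n = 5 mice), and lowest in cluster 6, at 1565 ± 635 and 1046 ± 674 CPM (SD, n = 6). The dendritic cell-like cluster 3 was the next lowest for both, at 2145 ± 483 and 1671 ± 374 CPM (SD, n = 7). Jun was highest in the lymphoid-like cluster 8 (1720.2 ± 934 CPM, SD, n = 6). Atf3 was at 919 ± 214 CPM in the macrophage-like cluster 4 (SD, n = 4), 918 ± 328 CPM in cluster 1 (SD, n = 7) and 906 ± 376 CPM in cluster 2 (SD, n = 6), against 477 ± 121 CPM in cluster 3 (SD, n = 7) and 143 ± 73.6 CPM in cluster 8 (SD, n = 6). By condition, Atf3 was at 1005, 1233 and 1227 CPM in the control mice of clusters 4, 1 and 2 and at 663, 681 and 584 CPM in the cKO mice, so the order of these 3 clusters depends on the mice averaged. Zfp36 shared its 3 lowest clusters (3, 6 and 8) with Atf3, and went from 1255 CPM in cluster 5 to 493 ± 124 CPM in cluster 3 (SD, n = 7) and 346 ± 40.4 CPM in cluster 8 (SD, n = 6). Ier2 varied least, from 822 ± 341 CPM in cluster 4 (SD, n = 4) to 359 ± 263 CPM in cluster 6 (SD, n = 6), with the other clusters of several mice between 591 and 691 CPM. The stromal-like cluster 9 reached 20 cells in control replicate 1 only, where Jun was at 3739 CPM and Ier2 at 1799 CPM.

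**Figure D2:**
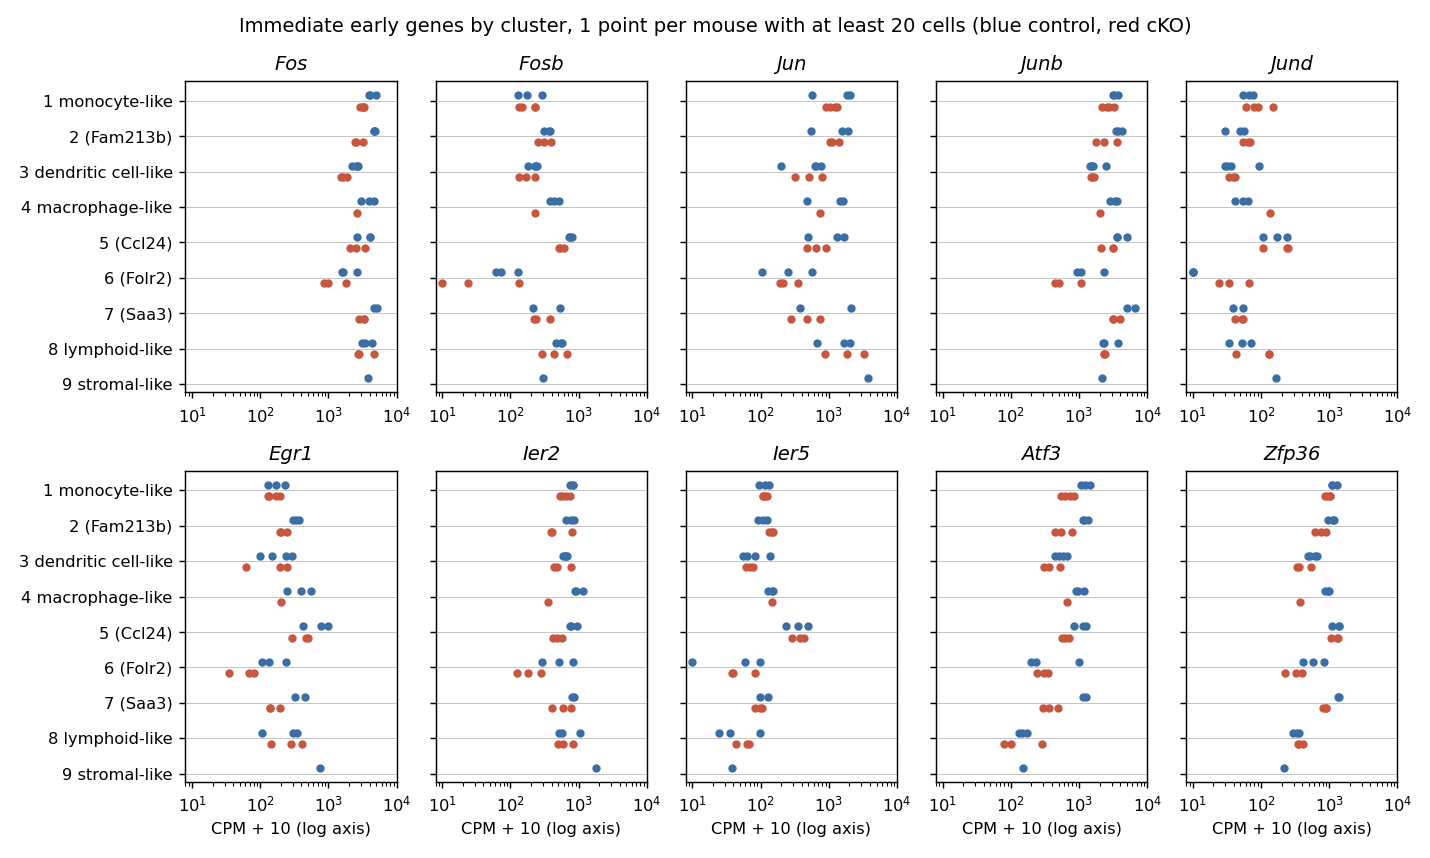
Level of each gene by cluster on a logarithmic axis of CPM + 10, with 1 point for each mouse that has at least 20 cells in the cluster, control in blue and cKO in red. Points of cluster 6 lie lowest for 8 genes and those of cluster 8 lowest for Atf3 and Zfp36, and cluster 5 lies highest for Fosb, Jund, Egr1, Ier5 and Zfp36 among clusters with several mice.

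With these mice the test of neighbours in the orders could not pass. Over 70 differences between neighbouring clusters, taken within mice, 0 passed after Benjamini-Hochberg adjustment over all of them (two-sided exact sign-flip permutation test), 4 had an unadjusted p under 0.05, and 14 had the same sign in every mouse. None of the differences had more than 6 mice, for which the smallest p is 0.03125, and 34 of them had 6, so none could have passed after adjustment and the test says nothing on whether neighbours differ. Clusters 5 and 6 were also the shallowest, and the part of depth in their levels was not tested.

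Within clusters, conditions were compared in the 6 clusters with at least 3 mice of each. Sums of all clusters entered the same edgeR fit with no term for the mouse, so it treated sums of a mouse as separate samples. In cluster 2 both Fos and Atf3 were lower in cKO mice, 2 of the 10 genes, where 0.661% of 11346 genes were called in either direction and 0.15% lower. Fos was at 4814, 4693 and 4580.5 CPM in control replicates 1, 2 and 4 and at 3182, 2479 and 2448 CPM in cKO replicates 6, 7 and 8. Every control mouse lay above every cKO mouse, and Fos fell by 0.87 on the log2 scale (standard error 0.23, adjusted p = 0.0473, edgeR). Atf3 was at 1148, 1349 and 1183 CPM in control and at 784, 428 and 541 CPM in cKO mice, again without overlap, and fell by 1.13 (standard error 0.28, adjusted p = 0.0246, edgeR). Zfp36 (-0.62, adjusted p = 0.219) and Egr1 (-0.73, adjusted p = 0.646) also had all cKO mice below all control mice in cluster 2, which held for 7.47% of genes, but did not pass, and Ier5 had all cKO mice above (0.37, adjusted p = 0.842), which held for 7.1%.

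Both calls in cluster 2 were lost when any 1 of 4 mice was left out, the difference keeping its direction. For Fos the adjusted p was 0.302 without control replicate 1, 0.114 without control replicate 2, 0.321 without cKO replicate 7 and 0.341 without cKO replicate 8, and for Atf3 it was 0.104, 0.0586, 0.377 and 0.129 in the same order (edgeR). Doublet calls in cluster 2 were 0.885% to 2.04% of cells in control and 3.17% to 4.44% in cKO mice, and both calls held without these cells. The summed monocyte markers of cluster 2 were at 1644 to 2219 CPM in control and 2480 to 3532 CPM in cKO mice, and the dendritic cell markers, of which Zbtb46 was at 0, at 61.8 to 112 CPM and 6.74 to 49.2 CPM. Of the 8 monocyte markers 2 were higher and 2 were lower in every cKO mouse, and of the 9 dendritic cell markers 3 were lower and none was higher. The part of these differences in the result was not tested.

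In the monocyte-like cluster 1, Atf3 was at 1073, 1203 and 1423 CPM in control replicates 1, 2 and 4 and at 739, 847, 606 and 533 CPM in cKO replicates 5 to 8. The groups did not overlap, but the log2 fold change of -0.78 (standard error 0.26) did not pass (adjusted p = 0.202, edgeR), and no member was called in this cluster, where 0.864% of genes were. Fos was at 4030.4, 5024.5 and 3869 CPM in control and at 3145, 3229, 3310.5 and 2901 CPM in cKO mice of cluster 1 (log2 fold change -0.36, adjusted p = 0.663, edgeR), again without overlap. Zfp36 was the third gene of cluster 1 with all cKO mice below, as 5.38% of all genes were. Cluster 1 itself differed in makeup, with 10266 to 12387 CPM of summed monocyte markers in control and 14648 to 17715 CPM in cKO mice, 3698 to 5619.7 CPM and 1367 to 2274 CPM of macrophage markers, and 0 doublet calls among 201 control cells against 17 among 481 cKO cells. Of the 8 monocyte markers 2 were higher and 1 was lower in every cKO mouse, and of the 13 macrophage markers 2 were lower and none was higher. The median mitochondrial share of cluster 1 was 1.53% to 1.70% in control and 1.12% to 1.44% in cKO mice. The part of these differences in the result was not tested.

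In the dendritic cell-like cluster 3, all 10 log2 fold changes were below 0, as were 56.9% of those of all genes, and none was called (0.432% of genes). Fos was at 2501, 2582, 2725 and 2211 CPM in the 4 control mice and at 1520.1, 1641 and 1834 CPM in cKO replicates 6, 7 and 8 of cluster 3. These ranges did not overlap (log2 fold change -0.64, adjusted p = 0.359, edgeR), which held for 4.71% of all genes in that direction. The median cell of cluster 3 held 8718 to 12644.5 UMIs in control and 6840 to 8615 UMIs in cKO mice. Its summed dendritic cell markers were at 1860 to 2138 CPM in control and 1521 to 1751 CPM in cKO mice. Of these 9 markers 1 was lower in every cKO mouse and none was higher. The parts of depth and makeup in cluster 3 were not tested. In cluster 5, Atf3, Junb, Ier2 and Fosb had all cKO mice below all control mice (4.2% of genes). The summed monocyte markers of cluster 5 were at 1185 to 1840.2 CPM in control and 2157 to 5497 CPM in cKO mice, and the macrophage markers at 13084 to 20973 CPM and 10982 to 12653 CPM, and their part was not tested. Of the 8 monocyte markers 1 was higher in every cKO mouse and none was lower, and of the 13 macrophage markers 4 were lower and 1 was higher. Fosb in that cluster was at 732, 795 and 720.5 CPM in control and 592, 520.4 and 506 CPM in cKO mice, with a log2 fold change of -0.52 (adjusted p = 0.85, edgeR), and none of the 10 genes was called there (0.176% of genes).

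In the shallow cluster 6, Egr1, Ier2 and Zfp36 had all cKO mice below (2.81% of genes) and none was called (0.0705% of genes). Counts there were small, with 29 UMIs of Egr1, 93 of Ier2 and 117 of Zfp36 over all 6 mice. The summed macrophage markers of cluster 6 were at 57532 to 62138 CPM in control and 48756 to 52846 CPM in cKO mice, and their part was not tested. Of these 13 markers 2 were lower in every cKO mouse and none was higher. Jund had 0 UMIs in the control cells and 4 UMIs in the cKO cells of cluster 6, 1 or more in each cKO mouse (2.48% of genes had all cKO mice above), too few for a fold. In the lymphoid-like cluster 8 none of the 10 genes separated the mice of the conditions and none was called (0.0705% of genes). There 4 of 10 log2 fold changes were below 0, and Fos, with control values of 3361, 3130.1 and 4283 CPM and cKO values of 4578, 2831 and 2705 CPM, had a log2 fold change of -0.02 (unadjusted p = 0.938, edgeR).

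**Figure D3:**
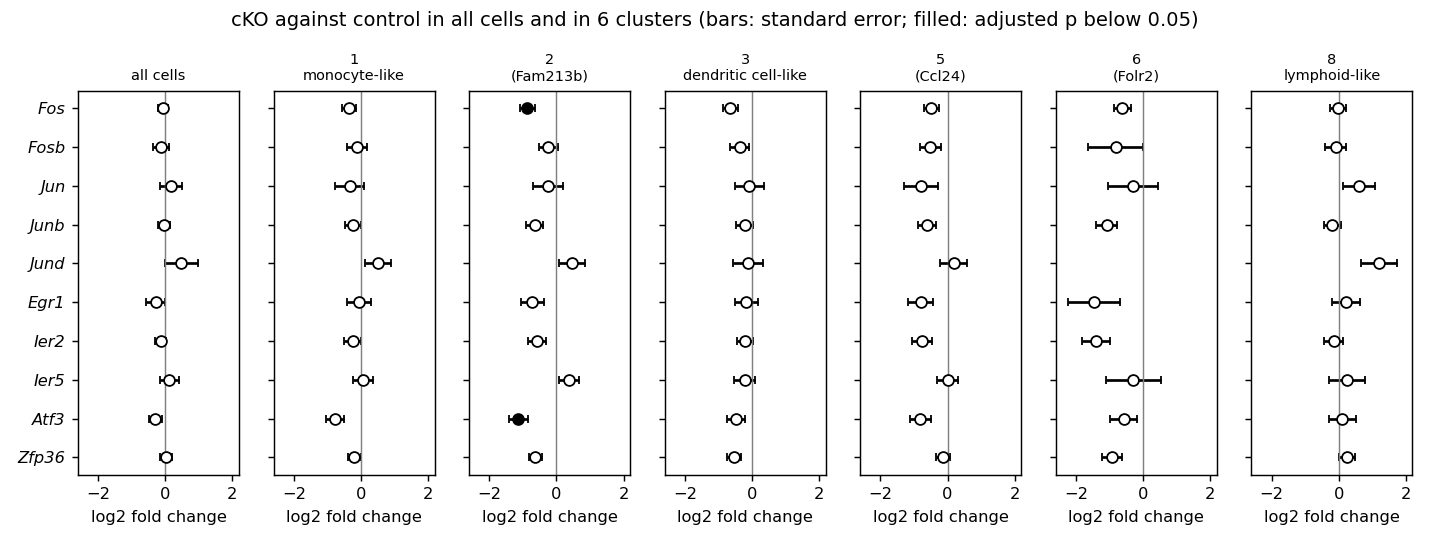
Log2 fold change, cKO relative to control, of each gene over all cells and in each of the 6 clusters tested, with standard errors as bars. Most points of clusters 1, 2, 3, 5 and 6 lie below 0, Fos and Atf3 of cluster 2 passed the threshold, and Jund of cluster 6 is not drawn because its control cells had 0 UMIs.

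Over these clusters the median log2 fold change of the 10 genes was -0.22 in cluster 1 (all genes 0.06), -0.61 in cluster 2 (-0.06), -0.22 in cluster 3 (-0.07), -0.56 in cluster 5 (-0.05), -0.72 in cluster 6 (0) and 0.17 in cluster 8 (0). The number below 0 was 8, 8, 10, 8, 9 and 4 of 10 in the same order, against 41.7%, 54.7%, 56.9%, 61.1%, 39.4% and 45.5% of all genes. A test of whether the difference between conditions itself varied over the 6 clusters called none of the 10 genes (adjusted p = 1 for each, edgeR) and 0.0441% of all genes, and with an unadjusted p under 0.05 it gave 1 gene, Zfp36 (0.0201). The effects in the 6 clusters were thus not shown to differ from each other.

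Some mice kept their place across clusters. Control replicate 4 had the lowest Jun of all mice in 6 of its 8 clusters, the lowest Jund in 6 of 8 and the highest Junb in 6 of 8. In cluster 1, Jun was at 564 CPM in that mouse against 2026 and 1842 CPM in the other control mice, while Junb was at 3738 CPM against 3217 and 3085 CPM. Control replicate 4 was thus low for Jun and high for Junb in the same cells. cKO replicate 8 had the lowest Junb in 6 of 8 clusters.

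Between single cells the genes did vary together. UMIs of each cell were thinned to 1000, which 3035 cells allowed (99 control and 79 cKO cells were shallower), and Pearson's r of log2(UMIs + 1) was taken within each of 45 sets of cells of the same mouse and cluster (2788 cells) and averaged over the 8 mice. The median r over the 45 pairs of genes was 0.141, with 37 pairs above 0 and 20 pairs above 0 in every mouse. The cells of a set share library and cluster, and these values are a description with no test.

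The strongest pair was Fos and Jun, the subunits of the classical AP-1 dimer, with r = 0.295 ± 0.0842 (SD over 8 mice, 0.165 to 0.387). Fos and Junb followed with 0.290 ± 0.136, Jun and Ier2 with 0.270 ± 0.166, and Jun and Atf3 with 0.240 ± 0.0682. The decay factor Zfp36 correlated with Fos at 0.238 ± 0.0861. Jun had the highest median r with the other 9 genes (0.226), and Jund the lowest (-0.00839). Jund and Ier2 gave the lowest pair (-0.080), and the highest value of Jund was with Ier5 (0.113). Jund and Ier5 were also the genes seen in the fewest cells, with a UMI in 6.69% and 11.6% of thinned cells and in 22.3% and 36.1% of all kept cells, against 79.9% and 92.1% for Fos. Free RNA in the wells adds to such shares, and its part was not tested.

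**Figure D4:**
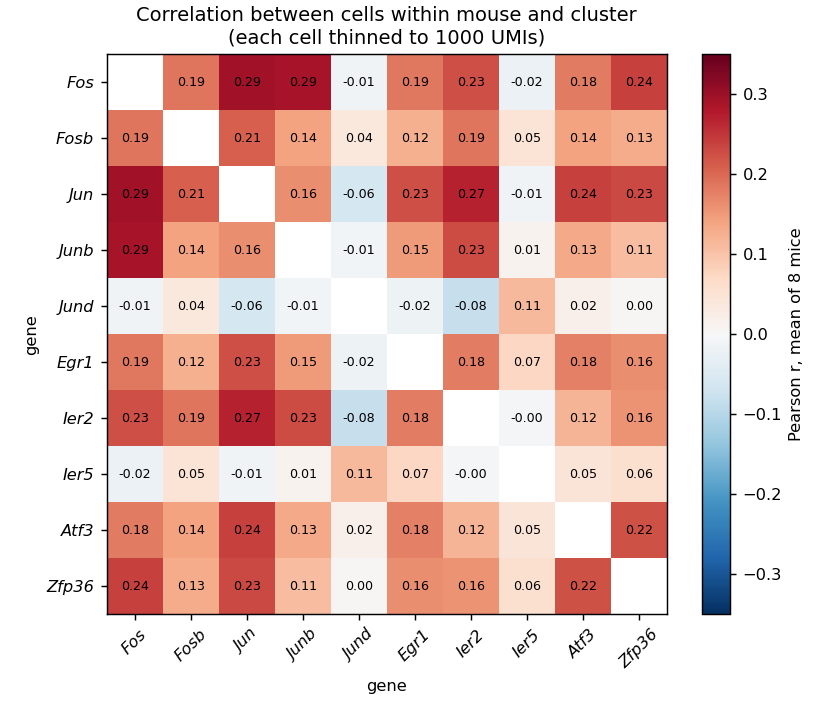
Mean Pearson's r between single cells for each pair of the 10 genes, on counts thinned to 1000 UMIs, within mouse and cluster and averaged over 8 mice. Values run from -0.080 (Jund and Ier2) to 0.295 (Fos and Jun), and the rows of Jund and Ier5 are the palest.

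The size of the correlation varied with the depth used. Without thinning the median r was 0.2997, and thinned to 2000 UMIs it was 0.183. By mouse it lay between 0.0862 and 0.166, with 0.137, 0.166, 0.0867 and 0.122 in control replicates 1 to 4 and 0.0862, 0.133, 0.113 and 0.110 in cKO replicates 5 to 8. The smallest libraries were the lowest of each condition, and the groups overlapped.

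Of 2329 other genes with a UMI in at least 5% of the cells used, the median r with the summed 10 genes was -0.00265. The highest was Dusp1, the phosphatase that switches off MAP kinases and is itself an immediate early gene (r = 0.406 ± 0.0917, SD over 8 mice). Btg2, an antiproliferative immediate early gene, was at 0.332 (-0.0411 to 0.548 by mouse). Also among the highest were Nr4a1 (0.273) and Klf6 (0.266), further immediate early transcription factors, the cytokine Il1b (0.242), the nuclear RNAs Malat1 (0.235) and Neat1 (0.226), the endoplasmic reticulum chaperone Hspa5 (0.218) and the stress phosphatase subunit Ppp1r15a (0.214). By mouse, Il1b ranged from -0.152 to 0.567. Of the other heat shock genes measured, Dnaja1 reached 0.192 ± 0.194, Hsp90aa1 0.150 ± 0.112 and Hspa1a 0.137 ± 0.0654 (SD over 8 mice). Dnajb1 (0.114), Hspa8 (0.113), Hspa1b (0.0846) and Hsp90ab1 (0.0801) were lower, and Hspe1 (0.0105) and Hspd1 (-0.0744) were the lowest. The summed genes correlated with the UMIs of the cell at 0.015 ± 0.116 and with its mitochondrial share at 0.074 ± 0.187 (SD over 8 mice).

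Cells set aside only for a mitochondrial share above 5% were compared with the cells kept. There were 381 such cells, with a median of 1142.5 to 1666 UMIs, and the comparison was made within the 6 mice that had at least 20 of them. Jund was at 170.3, 193 and 189.6 CPM in the excluded cells of control replicates 1, 2 and 4 and at 228, 272 and 246 CPM in those of cKO replicates 6, 7 and 8, against 30.6 to 68.3 CPM in the kept cells of these mice. Fosb was at 906, 634 and 998 CPM in the excluded control cells and at 817, 592 and 678 CPM in the excluded cKO cells, against 199.9 to 355 CPM in kept cells. For both genes, every excluded set lay above every kept set.

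On the log2(CPM + 10) scale the excluded cells exceeded the kept cells by 1.93 ± 0.29 for Jund, 1.62 ± 0.34 for Ier5, 1.40 ± 0.29 for Fosb, 0.99 ± 0.26 for Egr1, 0.35 ± 0.13 for Atf3 and 0.33 ± 0.16 for Zfp36 (SD, n = 6), each in 6 of 6 mice. Each of these had p = 0.03125 in a two-sided exact sign-flip permutation test, the smallest it can give with 6 mice, and 0.0521 after adjustment over the 10 genes, so none passed. Fos went the other way, by -0.41 ± 0.35 and higher in 1 of 6 mice (p = 0.0625, the same exact test), from 1575 to 3439 CPM in excluded cells. Ier2 (0.20), Jun (0.22) and Junb (0.10) differed by less. Fosb, Jund, Egr1 and Ier5, the 4 with the largest differences, were also highest in cluster 5, the cluster with the highest mitochondrial share among kept cells. Cluster 5 was shallow like the excluded cells, with a median of 2098 UMIs. Excluded cells were compared with all kept cells of a mouse, with cell type not held fixed. The parts of depth and cell type in these differences were not tested.

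**Figure D5:**
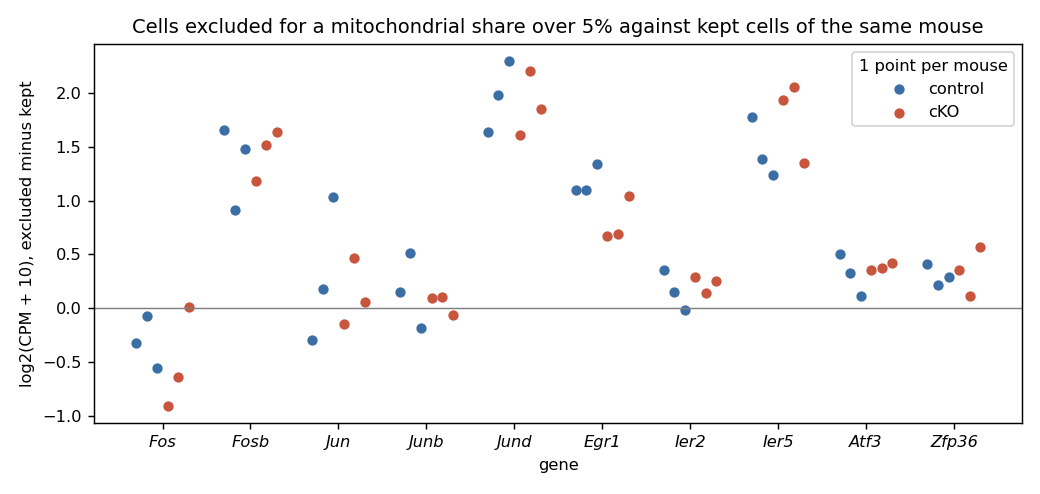
Difference in level of each gene between cells excluded only for a mitochondrial share above 5% and cells kept (excluded minus kept). Values are on the logarithmic scale used in the text, with 1 point for each of 6 mice, coloured by condition. All 6 mice were higher in the excluded cells for Fosb, Jund, Egr1, Ier5, Atf3 and Zfp36, and 1 of 6 for Fos.

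Further genes of the pathway were read from 5 lists. Of 34 tested immediate early and AP-1 related genes, Sgk1, a kinase induced by growth signals, was higher in cKO mice over all cells (log2 fold change 0.83, adjusted p = 0.0218, edgeR), and Batf3, an AP-1 factor of dendritic cells, was lower (-1.03, adjusted p = 0.0110, edgeR). No other gene of the 34 was called over all cells, where 4.48% of all genes were. Sgk1 was at 151 to 214 CPM in control and 258 to 363 CPM in cKO mice, and Batf3 at 115 to 159 CPM and 46.2 to 79.8 CPM. In clusters 1, 2 and 3 the log2 fold changes were 0.90, 0.55 and -0.96 for Sgk1 and -0.90, -0.43 and -0.20 for Batf3, with no call. The dendritic cell markers given above were also lower over all cells, and the part of this makeup was not tested. The median of this list was 0.31, against -0.03 for all genes. Of 25 kinases and factors that drive immediate early genes, none was called in any comparison.

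Of 15 MAP kinase phosphatases and other feedback inhibitors, 3 were higher in cKO mice over all cells and none was lower, where 4.48% of all genes were called. Dusp3 was the one whose groups did not overlap, at 31.5 to 46.8 CPM in control and 58.3 to 76.1 CPM in cKO mice (0.81, adjusted p = 0.0270, edgeR). Of 22 mRNAs known as targets of AP-1, EGR1 or ZFP36 in myeloid cells, 4 were higher and 1 was lower over all cells. The share of all genes called in either direction was again 4.48%, and whether the list exceeds it was not tested. The cytokine Il1a was at 7.03 to 53.5 CPM in control and 56.3 to 434 CPM in cKO mice (log2 fold change 2.95, adjusted p = 0.0376, edgeR), and the cytokine Osm at 135 to 304 CPM and 359.8 to 679 CPM (1.27, adjusted p = 0.0218, edgeR). The angiogenic factor Vegfa (1.57, adjusted p = 0.0234) and the adhesion receptor Cd44 (0.74, adjusted p = 0.0383) were higher too, and the transcription regulator Id2 was lower (-0.69, adjusted p = 0.0327, edgeR). The monocyte markers given above were also higher and the dendritic cell markers lower over all cells, and their part in the calls of both lists was not tested. In clusters 1, 2 and 3 the log2 fold changes were 0.13, 0.06 and -0.29 for Id2, and 0.82, -0.26 and 0.80 for Osm. They were -0.16, 0.60 and 2.25 for Vegfa and 0.48, -0.18 and 0.54 for Cd44, and none of these was called. For Il1a they were 2.95, 0.92 and 0.24, and only that of cluster 1 was called. The median of this list was 0.90 over all cells, and 0.97, -0.05, 0.60, 0.20, 0.48 and -0.09 in clusters 1, 2, 3, 5, 6 and 8.

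Of 15 heat shock genes, none was called over all cells. Hspa1a, an inducible chaperone whose near-identical copy Hspa1b can share its reads, was lower in cKO mice in cluster 1, at 2348 to 3718 CPM in control and 834 to 1972 CPM in cKO mice (-1.12, adjusted p = 0.0154, edgeR). In cluster 5 it was at 1877 to 2527 CPM in control and 509.6 to 1103 CPM in cKO mice (-1.52, adjusted p = 0.00991, edgeR). Monocyte and macrophage markers also differed between conditions in clusters 1 and 5, as given above, and their part was not tested. Of the other lists, 1 phosphatase and 1 target were higher in cluster 1, and 1 phosphatase, Dusp16, was higher in cluster 5 (12.4 CPM on average in control and 127 CPM in cKO mice). No other gene of the 5 lists was called in a cluster.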

How the data were processed

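Cells of 8 mice were measured with the 10x 3′ v2 kit. The authors deposited UMI counts per gene and cell, made with Cell Ranger and STAR 2.5.3a on mm10, merged over mice and not normalized or filtered, and the submitters' processing notes also name R 3.5.0. The filters of the study's methods were applied, which remove a cell whose log10 UMIs are under 2.8, whose log10 genes are under 2.6, whose mitochondrial share is over 5% or that has a hemoglobin UMI. Kept cells held 497531 to 3762314 UMIs per mouse. Doublets were called per mouse with Scrublet (scanpy 1.11.5) and kept in the main results, and whether they were removed before deposit is not given in the sources used here. Cells were normalized by pooled size factors and clustered by Ward's method into 9 clusters (scran 1.30.0, R 4.3.3), leaving out 319 genes, and clusters were named from markers among their 10 leading genes by fold.

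CPM are UMIs of a gene scaled to 1000000 UMIs of the same sum. UMI sums over all cells of a mouse, or over its cells of a cluster where these were at least 20, were tested with edgeR 4.0.16 (TMM, quasi-likelihood), keeping genes above 1 CPM in at least 3 sums and with a UMI in at least 20 cells, with Benjamini-Hochberg adjustment at 0.05. DESeq2 1.42.0 and limma-voom 3.58.1 were alternatives, next to other filters, size factors, clusterings and left-out mice. Differences within mice used two-sided exact sign-flip permutation tests (scipy 1.17.1). Scripts were tested on simulated data. The 10 genes are named in every comparison. Of the other lists, up to 5 genes per list and direction with the largest fold change are named, among called genes without overlap of the mice, as are the 10 genes most correlated with the summed genes between cells, of which 1 is not reported here. The 10 genes, the lists and the comparisons were chosen with earlier results of these data known. Promoter windows are from RefSeq on GRCm38.p6, and gene positions are from GENCODE vM21 on the same assembly. Mice are separate animals and littermates per the methods of the study, and which of them share a litter or cage is not given in the sources used here. The p-values over all cells and of the permutation tests measure the spread between these mice. Those of the fits over clusters do not keep to that spread, since sums of the same mouse entered as separate or nearly separate samples. A cluster is a group of cells rebuilt here, and it need not match the clusters of the study.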

Additional observations from a re-analysis of the deposited data

Results flagged for a closer look

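Groups of 4 to 10 mice were examined for a mouse far from its group, by the gap to the nearest mouse over the range of the group. Of 42 groups of a gene and a condition, 6 held such a mouse, and chance gives about 1 in 20. Over all cells, Jund was at 149 CPM in control replicate 3, where the other control mice were between 30.6 and 47.8 CPM, and at 161 CPM in cKO replicate 5, where the other cKO mice were between 51.1 and 68.3 CPM. Ier5 was at 207 CPM in control replicate 3 (others 87.2 to 99.1 CPM) and at 167 CPM in cKO replicate 5 (others 104 to 109 CPM). In the dendritic cell-like cluster 3, Jund was at 82.2 CPM in control replicate 3, against 19.9 to 26.0 CPM in the other control mice. These values belong to the smallest library of each condition, and the part of library size in them was not tested. Junb was at 1962 CPM in cKO replicate 8 over all cells, where the other cKO mice were between 2715 and 2851 CPM, and cKO replicate 8 had the lowest Junb of all mice in 6 of 8 clusters.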

How the results depend on the processing

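Over all cells no alternative called any of the 10 genes except the fit with cluster as a term, which called 5 and turned Zfp36 to -0.43. Leaving out single mice gave 0 to 0 calls over all cells and 5 to 7 with cluster as a term. Left-out mice aside, the 2 calls in clusters became 5 with DESeq2, 5 with limma-voom, 4 without the low-count filter, 4 with each cluster fitted alone, 1 with an absolute log2 fold change above 1, 1 with RLE size factors, 1 when all genes entered the clustering and 0 from 10 cells per sum. They ranged from 0 to 3 without single mice, and stayed at 2 without doublets. In cluster 2 Fos passed neither with RLE size factors (adjusted p = 0.0788) nor from 10 cells per sum (0.123), and Atf3 neither with all genes clustered (0.112) nor from 10 cells per sum (0.194). Recomputed clusters were matched to those here by shared cells over all cells in either (Jaccard index). With a mitochondrial share up to 10%, the match of cluster 2 (228 shared cells, 0.336) had too few mice for a test. With 12 clusters, so had the matches of cluster 1 (279 cells, 0.409) and cluster 3 (299 cells, 0.56). With all genes clustered, the match of cluster 2 had an index of 0.442. The median correlation between cells was 0.2997 without thinning, 0.183 at 2000 UMIs and 0.135 to 0.147 without single mice. The test of neighbouring clusters could not pass with so few mice, nor could that of excluded cells with a mouse left out, so neither says anything on stability. Over the same alternatives and left-out mice, all genes called numbered 155 to 787 over all cells (510 as reported), and 47 to 227, 44 to 135, 14 to 89, 4 to 63, 3 to 30 and 2 to 69 in clusters 1, 2, 3, 5, 6 and 8 (98, 75, 49, 20, 8 and 8). Of 1271 fold changes recomputed, 1199 kept their sign, 13 were no longer called and 15 became called, and causes were not tested. No paired analysis was possible because the mice are numbered 1 to 8 and the groups share no number. Small sums limit clusters 5, 6 and 8, and intervals cover these mice only.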

Other observations

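Clusters 4, 7 and 9 had too few mice with 20 cells for a comparison of conditions, and their values are given without a test. In cluster 7, led by Saa3, Arg2 and Hp, Atf3 was at 1237 and 1121 CPM in control replicates 1 and 4 and at 479.5, 349.9 and 291 CPM in cKO replicates 6, 7 and 8. Fos in cluster 7 was at 5043 and 4675 CPM in these control mice and at 3306, 2805 and 3358 CPM in these cKO mice. Junb there was at 4984 and 6703 CPM in control and at 4003, 3163 and 3146 CPM in cKO mice. Of the cKO cells of cluster 7, 14 of 146 were called doublets, and of the control cells 0 of 88. The summed monocyte markers of cluster 7 were at 4700.2 to 5162 CPM in control and 7606 to 8513 CPM in cKO mice, and the macrophage markers at 10449 to 12485 CPM and 6920.3 to 9517 CPM, and their part in these values was not tested. Of the 8 monocyte markers 4 were higher and 2 were lower in every cKO mouse, and of the 13 macrophage markers 1 was higher and 2 were lower. In the macrophage-like cluster 4, cKO replicate 8 was the only cKO mouse with 20 cells, with Zfp36 at 359 CPM against 861 to 979 CPM in control replicates 1, 2 and 4, and Ier2 at 345 CPM against 885 to 1154 CPM. Jund in that mouse was at 124 CPM, above the 31.6 to 55.6 CPM of the control mice of cluster 4. Jun and Ier5 of that mouse lay within the control range. Its Zfp36, Ier2 and Jund values rest on 26, 25 and 9 UMIs. The median cell of cluster 4 held 3160 UMIs in that mouse and 4815 to 5728 UMIs in the control mice. Summed monocyte markers were at 870 CPM and 171 to 206 CPM in the same order, and the parts of depth and makeup were not tested.

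Between single cells, further genes close to the 10 most correlated were Rgs2 (r = 0.209), a regulator of G protein signalling, and Ier3 (0.207), another immediate early gene. Hspd1, a mitochondrial chaperone, had r = -0.0744, in contrast to the cytosolic Dnaja1 (0.192), and the difference between them was not tested.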
